A study of Mus musculus with 435 samples.

Results

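The 38 genes described here are the serpins and coagulation factors measured in livers of leptin receptor deficient mice. They were chosen by gene symbol alone: every gene whose symbol starts with Serpin, the numbered coagulation factors, the 3 fibrinogen chains (Fga, Fgb, Fgg), and Proc, Pros1, Plg, Klkb1 and Kng1. RefSeq names 82 mouse protein-coding genes by this rule, of which 38 of the 13379 genes with an unambiguous symbol in the expression table were measured. They comprise 19 serpins and 19 coagulation, kallikrein-kinin and fibrinolysis genes, each read by 1 probe set. Levels are log2 expression values, in which a difference of 1 is a doubling, and a level is compared only with the same gene in other mice.

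The mice were F2 offspring of DBA/2J females and C57BL/6 males heterozygous for the db mutation, by way of intercrossed db/+ F1 animals. All 435 were db/db, so they lacked the leptin receptor, and all ate chow. No lean or db/+ mouse was among them, so nothing here compares db/db with normal liver. Whole-liver RNA was hybridised to Affymetrix arrays, 1 per mouse, from 118 females and 101 males aged 5 weeks and from 110 females and 106 males aged 12 weeks. Because each F2 mouse carries its own mixture of the parental genomes, the mice of a group differ from each other genetically as well as in their traits.

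Most clotting proteins are made by hepatocytes and secreted as inactive zymogens. Factor VII meets tissue factor at a wound and starts a cascade through factors X and II (prothrombin), which ends when thrombin cuts fibrinogen to fibrin. Another entry runs through the contact proteins and factor XI, and plasmin, made from plasminogen, later dissolves the clot. Serpins are protease inhibitors that trap their target by a change of shape: antithrombin (Serpinc1), heparin cofactor II (Serpind1), alpha2-antiplasmin (Serpinf2) and C1 inhibitor (Serping1) restrain these cascades, while other family members carry hormones, inhibit neutrophil proteases or chaperone collagen.

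Array medians lay between 5.56 and 5.70 in log2 units. The array names held a code with 6 values, here called batches, and a code with 25 values, here called the plate code. The labels do not say what either code stands for. Every group was spread over batches 1 to 4, with 99, 138, 110 and 86 arrays, while batches 5 and 6 were 1 female of 12 weeks each. The X-linked gene Eif2s3x put 8 arrays nearer to the mean of the sex opposite to their label, namely 3 and 2 labelled females of 5 and 12 weeks and 2 and 1 labelled males. These arrays were kept under their labels, and the sex comparison says what changed without them. The 11 measured hepatocyte markers had a mean level between 13.11 and 13.65 in every mouse. In whole liver, fewer cells of a type and less RNA per cell cannot be told apart. Mean levels of the 38 genes ran from 3.84 for Serpina9 to 14.9 for Serpina1b, and 5 genes (Serpina9, Serpinb11, F13a1, Serpinb9, Serpinb9d) lay in the lowest 25% of all genes measured. No filter on low signal was applied. The probe sets of Serpina1b, Serpina10 and Serpinb6e are of types that can also bind near-identical transcripts, so the identity of their signal is uncertain.

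Several of the 38 genes are chromosomal neighbours, and their regulatory starts are shown here because expression of these neighbours across mice is compared further on. The fibrinogen genes Fga, Fgb and Fgg lie side by side on chromosome 3, and F7 and F10 on chromosome 8. Serpina11 and Serpina3n belong to the serpin cluster of chromosome 12. The following sequences are the 250 bases before the gene start, from RefSeq on mouse build GRCm38.p6, each written 5′ to 3′ on the strand of its gene. Capitals mark matches to GTTAAT, a core of the site of the liver factor HNF1, or to TTCNNNGAA, the site of STAT factors, on either strand.
Fga (chr3:83025903-83026152, plus strand): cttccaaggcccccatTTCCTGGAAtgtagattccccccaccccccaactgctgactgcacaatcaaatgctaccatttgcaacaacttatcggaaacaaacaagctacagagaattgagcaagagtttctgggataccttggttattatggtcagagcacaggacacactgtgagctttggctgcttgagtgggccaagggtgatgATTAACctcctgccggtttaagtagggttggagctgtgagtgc
Fgb (chr3:83049864-83050113, minus strand): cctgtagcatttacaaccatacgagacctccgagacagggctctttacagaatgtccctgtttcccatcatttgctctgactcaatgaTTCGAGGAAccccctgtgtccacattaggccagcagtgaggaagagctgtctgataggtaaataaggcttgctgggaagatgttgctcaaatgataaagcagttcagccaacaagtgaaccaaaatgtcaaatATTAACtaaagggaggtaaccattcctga
Fgg (chr3:83007474-83007723, plus strand): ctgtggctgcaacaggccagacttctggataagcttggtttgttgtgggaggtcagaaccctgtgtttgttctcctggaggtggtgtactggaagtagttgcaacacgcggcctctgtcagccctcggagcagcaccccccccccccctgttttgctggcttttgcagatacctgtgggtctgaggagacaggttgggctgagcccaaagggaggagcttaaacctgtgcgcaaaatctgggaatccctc
F7 (chr8:13025784-13026033, plus strand): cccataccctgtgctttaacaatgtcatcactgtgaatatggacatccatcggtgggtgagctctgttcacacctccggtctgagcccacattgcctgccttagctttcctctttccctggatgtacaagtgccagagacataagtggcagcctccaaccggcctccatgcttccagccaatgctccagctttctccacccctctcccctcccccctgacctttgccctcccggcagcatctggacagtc
F10 (chr8:13037058-13037307, plus strand): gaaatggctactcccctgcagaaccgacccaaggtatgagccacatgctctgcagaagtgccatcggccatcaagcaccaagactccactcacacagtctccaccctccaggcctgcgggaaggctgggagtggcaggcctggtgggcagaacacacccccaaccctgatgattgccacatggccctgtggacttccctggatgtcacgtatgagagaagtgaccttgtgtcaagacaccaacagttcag
Serpina11 (chr12:103989944-103990193, minus strand): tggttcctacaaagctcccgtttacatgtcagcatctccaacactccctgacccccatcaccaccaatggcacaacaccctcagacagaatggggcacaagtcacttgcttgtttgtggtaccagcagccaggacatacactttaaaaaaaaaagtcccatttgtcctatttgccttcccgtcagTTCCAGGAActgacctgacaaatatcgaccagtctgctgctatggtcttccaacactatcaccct
Serpina11 (chr12:103989958-103990207, minus strand): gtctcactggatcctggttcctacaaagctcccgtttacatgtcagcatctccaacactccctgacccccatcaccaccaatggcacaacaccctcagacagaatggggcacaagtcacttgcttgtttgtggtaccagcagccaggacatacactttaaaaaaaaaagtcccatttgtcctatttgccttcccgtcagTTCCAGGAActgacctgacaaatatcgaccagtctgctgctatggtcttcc
Serpina3n (chr12:104406458-104406707, plus strand): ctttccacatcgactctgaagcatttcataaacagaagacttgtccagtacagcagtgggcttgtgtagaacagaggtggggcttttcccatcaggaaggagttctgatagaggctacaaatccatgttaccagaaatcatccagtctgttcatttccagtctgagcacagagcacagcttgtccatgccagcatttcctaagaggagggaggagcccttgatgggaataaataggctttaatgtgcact

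Promoters in the RefSeq table were matched for 31 of the 38 genes, as 34 entries. Searched on both strands over the same 250 bases, GTTAAT occurred in 14.7% of these entries (F13b, Fga, Fgb, Serpina1b and Serpinb8) and in 6.43% of all 32851 promoters of the table. TTCNNNGAA occurred in 20.6% of the entries (F9, Fga, Fgb, Pros1, Serpina11 and Serpinb6a) and in 7.02% of all promoters. CAAAGTCCA (HNF4) and TTGCGCAA (C/EBP) were in 0 of the 34 entries and in 0.384% and 0.164% of all promoters. Fga and Fgb each held both motifs, at 43 and 234 bases before the start of Fga and at 29 and 162 bases before the start of Fgb, while neither string was in the windows of Fgg, F7, F10 or Serpina3n. These matches describe letters in a fixed window and carry no information on binding.

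The first comparison asked how expression differed between 5 and 12 weeks of age within each sex. The ages also differed in plasma traits. Median glucose was 224 mg/dl in younger and 460.5 in older females, and 240 and 599.5 in males. Median insulin was 50.0 and 128 uIU/ml in females and 45.4 and 61.05 in males. The part of these traits in the age differences was not tested. Coagulation genes were mostly lower at 12 weeks. In females 20 of the 38 genes fell and 2 rose (limma, adjusted p under 0.05), where 24.2% and 22.1% of all 13379 genes did so. In males 24 fell and 2 rose, against 24.0% and 22.3% of all genes. The median difference over the 38 genes was -0.047 in females and -0.067 in males, beside 0.0025 and -0.0043 over all genes. Within batches 1 to 4, the genes that changed kept their sign in 20 to 22 of 22 cases in females and in 25 to 26 of 26 in males. Of the 11 hepatocyte markers, 4 rose and 4 fell with age in females, and 2 rose and 4 fell in males. Among markers of other cells, 8 of 11 macrophage, 6 of 12 endothelial, 3 of 7 neutrophil and 3 of 9 lymphocyte markers fell in females, and 10, 4, 5 and 7 of them in males. Of the same lists 1 endothelial and 1 neutrophil marker rose in females and 2 endothelial markers in males. The median difference of the macrophage markers was -0.20 in females and -0.31 in males. The part of these lists in the counts was not tested.

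Factor VII, the protease that starts clotting with tissue factor, was lower at 12 weeks in both sexes. In 5-week females F7 had a lowest, median and highest level of 10.56, 10.95 and 11.36, and in 5-week males of 10.06, 10.85 and 11.23. At 12 weeks the values were 9.995, 10.44 and 11.02 in females and 9.848, 10.35 and 10.86 in males. Of the 110 older females, 73 lay below the lowest 5-week female and 109 below the 5-week median, so the female groups overlapped only in part. Of the 106 older males, 11 lay below the lowest 5-week male and 105 below the median, so the male ranges overlapped more. F7 fell by 0.51 ± 0.028 (SE) in females, or 1.42-fold (adjusted p = 5.8e-52), and by 0.50 ± 0.030 in males (adjusted p = 8.1e-47). Age and sex group took up 58.7% of its variance, where the median over all genes was 3.64%.

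The other vitamin K dependent members moved less. These proteins need carboxylation of glutamates to bind membranes. F10, factor X, the protease that makes thrombin, had lowest, median and highest levels of 8.708, 9.167 and 9.774 in 5-week females and of 8.450, 8.924 and 9.465 at 12 weeks. In males the corresponding levels were 8.526, 9.178 and 9.684 at 5 weeks and 8.497, 8.915 and 9.307 at 12 weeks. The ranges overlapped widely, yet 98 of 110 older females lay below the younger median. F10 fell by 0.25 ± 0.029 in females and by 0.24 ± 0.030 in males (adjusted p = 1.1e-15 and 1.0e-13). Pros1, protein S, the cofactor of activated protein C, fell in females (-0.11 ± 0.021, adjusted p = 5.1e-06) and differed by 0.0018 ± 0.023 in males. Prothrombin (F2) was lower by 0.020 and 0.052 as deposited. In females this sign depended on scaling: after a further quantile normalization F2 was 0.021 higher at 12 weeks.

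All 4 genes of the contact system fell in both sexes. F11, factor XI, which activates factor IX, had levels of 8.640, 9.559 and 10.41 (lowest, median, highest) in 5-week females and of 8.292, 9.020 and 10.20 in 12-week females. Males ran from 9.051 through 10.04 to 11.09 at 5 weeks and from 8.559 through 9.296 to 10.53 at 12 weeks. The 5-week males stood highest of the groups and 101 of the 106 older males lay below their median. F11 fell by 0.49 ± 0.051 in females and by 0.72 ± 0.054 in males, 1.40-fold and 1.65-fold (adjusted p = 1.6e-18 and 1.3e-32). Kng1, kininogen, the carrier protein cut to bradykinin, fell by 0.14 in both sexes. Factor XII (F12) fell by 0.11 and 0.13 and plasma prekallikrein (Klkb1) by 0.077 and 0.13, in females and males respectively. In batch 4 alone, F12 was 0.12 higher in older females, opposite in sign to the other batches.

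Among cofactors, F5 was the exception in direction. Factor V, which speeds the activation of prothrombin, rose by 0.16 ± 0.025 in females and by 0.13 ± 0.026 in males (adjusted p = 9.3e-10 and 1.2e-05). F13b, the carrier subunit of the fibrin-crosslinking factor XIII, fell by 0.16 ± 0.014 and 0.10 ± 0.015. Tissue factor (F3), factor VIII (F8) and the catalytic factor XIII subunit F13a1 did not pass the test in either sex, with differences between -0.024 and 0.069. Fibrinogen chains shifted by small amounts: Fgb fell by 0.070 and 0.11, Fgg by 0.042 and 0.089, and Fga by 0.060 in males, with a female difference of -0.016. After a further quantile normalization the female difference of Fgg was -0.017 (adjusted p = 0.14). Plg, plasminogen, fell by 0.066 and 0.067.

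Of the 5 serpins that act on clotting, fibrinolytic or complement proteases, Serpinf2 and Serpind1 fell most. Serpinf2 levels in 5-week females ran from 12.49 through a median of 12.76 to 13.18, and in 12-week females from 12.20 through 12.56 to 13.01. In males they ran from 12.31 through 12.76 to 13.09 and from 12.00 through 12.62 to 13.14. The distributions overlapped, with 38 of 110 older females below all younger ones and 11 of 106 older males below all younger males. Serpinf2 fell by 0.20 ± 0.022 and 0.16 ± 0.024 (adjusted p = 7.1e-17 and 9.3e-10), and Serpind1 by 0.14 ± 0.014 and 0.17 ± 0.015. Serpinc1 fell by 0.047 and 0.030. Serpina10, the inhibitor of factors X and XI that acts with protein Z, fell in males (-0.13 ± 0.029) with a female difference of -0.043, and Serping1 rose in females (0.081 ± 0.016) with a male difference of 0.037.

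Serpinh1, a collagen chaperone of the endoplasmic reticulum, had a larger age difference than F7 in both sexes. Its lowest, median and highest levels were 6.649, 7.364 and 8.244 in 5-week females and 6.162, 6.800 and 7.629 in 12-week females. Males had 6.422, 7.355 and 8.138 at 5 weeks and 5.880, 6.724 and 7.571 at 12 weeks. Although the ranges overlapped, 103 of 110 older females and 100 of 106 older males lay below the younger median of their sex. The differences were -0.57 ± 0.045 and -0.60 ± 0.048 (adjusted p = 6.7e-30 and 3.7e-29). Of the 7 measured stellate cell and fibroblast markers, 3 fell with age in each sex: Lum (-0.83 in females, -0.88 in males), Col1a1 (-0.71 and -0.73) and Pdgfrb (-0.20 and -0.17). The mean of the 7 markers ranged from 5.906 to 6.617 in 5-week females and from 5.689 to 6.471 in 12-week females, and from 5.839 to 6.565 and 5.650 to 6.324 in males. Their part in the Serpinh1 result was not tested.

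Serpina6, corticosteroid-binding globulin, fell alike in both sexes. Females ranged from 12.15 through 13.15 to 13.80 at 5 weeks and from 12.07 through 12.77 to 13.45 at 12 weeks. Males ranged from 11.72 through 12.73 to 13.70 and from 10.97 through 12.42 to 13.47. The differences were -0.34 ± 0.054 and -0.34 ± 0.058 (adjusted p = 3.9e-09 and 3.9e-08). Serpinb8, an intracellular clade B inhibitor, had levels of 5.860, 7.054 and 7.919 and of 5.866, 6.811 and 7.812 in 5- and 12-week females, and of 5.765, 6.813 and 7.831 and of 5.828, 6.637 and 7.490 in males. These groups overlapped over nearly their whole range, with 78 of 110 older females below the younger median. Serpinb8 fell by 0.21 ± 0.058 in females and by 0.25 ± 0.061 in males (adjusted p = 8.2e-04 and 2.3e-04). With the plate code of the array name in place of batch, the female difference was -0.14 (adjusted p = 0.070). Serpinf1, pigment epithelium-derived factor, fell by 0.14 and 0.088. Of the 7 clade B genes, 2 fell in each sex (Serpinb8 and Serpinb6e) and none rose; with the plate code the male difference of Serpinb6e was -0.038 (adjusted p = 0.15).

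**Figure D1:**
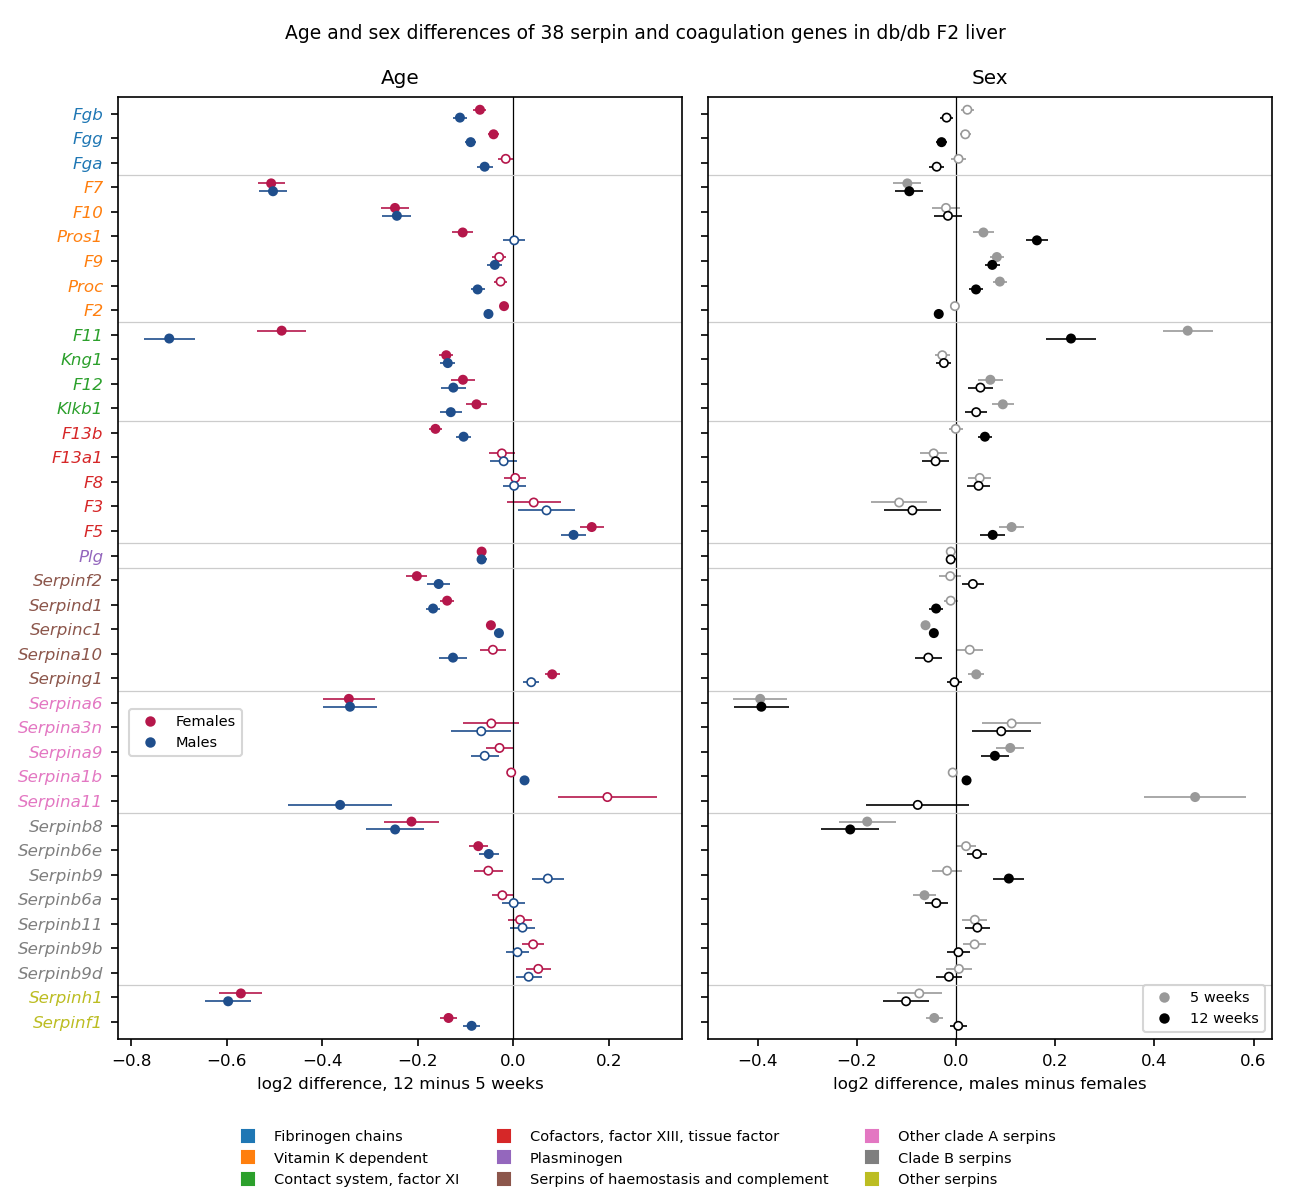
Log2 differences of the 38 genes between ages (left, 12 minus 5 weeks) and sexes (right, males minus females), as points with bars of 1 SE; filled points passed limma's test at adjusted p under 0.05, open points did not, and gene names are coloured by role. F7, F11 and Serpinh1 stand farthest to the left in both sexes, and F5 lies on the right.

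**Figure D2:**
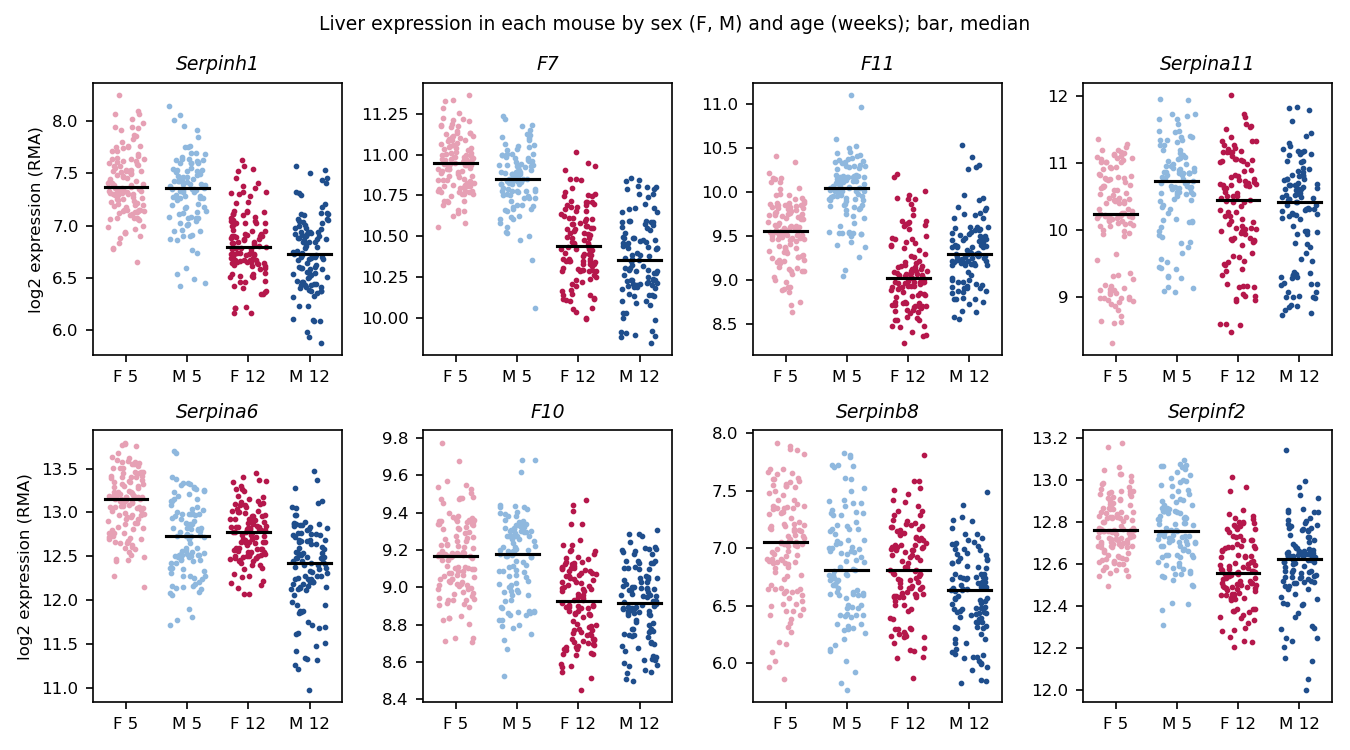
Log2 expression of 8 genes in each mouse by sex and age, with 1 point per mouse and a bar at the group median. F7 drops from medians of 10.95 and 10.85 at 5 weeks to 10.44 and 10.35 at 12 weeks, and the Serpina11 values of 5-week females have a gap from 9.642 to 9.911.

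Related lists give the setting of these changes; they were read by counts alone. Of 20 measured other haemostasis genes, 10 fell with age in each sex, and 1 rose in females and 2 in males. Ahsg, fetuin-A (-0.43 and -0.42), Hpn, a liver surface protease (-0.18 and -0.17), and Proz, the protein Z partner of Serpina10 (-0.16 and -0.14), were among those lower in both. Of 17 complement genes 9 fell and 2 rose in females, and 12 fell and 1 rose in males. Among 6 measured genes of the vitamin K cycle and clotting factor export, Ggcx, the carboxylase that modifies the vitamin K dependent factors, fell in males (-0.29). Furin, which removes propeptides, rose in both sexes (0.18 and 0.23). Of 16 acute phase genes 4 fell and 6 rose in females, and 8 fell and 4 rose in males.

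Sex differences were next compared at each age. At 5 weeks 10 of the 38 genes were higher and 6 lower in males, against 10.5% and 14.4% of all genes, and at 12 weeks 9 were higher and 7 lower, against 8.97% and 9.08%. Every gene that passed at 5 weeks had the same sign within each of batches 1 to 4. At 12 weeks 14 of 16 did, with Serpina9 of opposite sign in batch 3 and Proc in batch 4. Among markers of other cells, 5 of 11 macrophage, 5 of 12 endothelial and 2 of 9 lymphocyte markers were lower in males at 5 weeks and 11, 1 and 4 at 12 weeks, and 0 of 7 and then 4 of 7 neutrophil markers. Higher in males were 1 neutrophil marker at 5 weeks and 1 endothelial marker at 12 weeks. The median of the macrophage markers was -0.19 at 12 weeks. Their part in the sex differences was not tested. Without the 8 arrays whose Eif2s3x level went against their label, 14 genes passed at 5 weeks and 16 at 12 weeks. Of the genes that had passed, Pros1 and Serpinf1 at 5 weeks and Serpina9 at 12 weeks then missed the threshold (adjusted p = 0.052, 0.056 and 0.063).

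Serpina6 and Serpinc1 were lower in males at both ages. For Serpina6 the difference was -0.40 ± 0.054 at 5 weeks and -0.39 ± 0.055 at 12 weeks, 1.31-fold at each age (adjusted p = 1.6e-10 and 3.6e-10), and -0.41 and -0.40 without the 8 arrays. At 5 weeks 83 of 101 males lay below the female median and 9 below the lowest female, and at 12 weeks 85 and 23 of 106. Serpinc1 was lower by 0.062 and 0.045 (-0.063 and -0.047 without the 8 arrays), a small difference, yet 89 of 101 males of 5 weeks lay below the female median and 17 below the lowest female. Serpinb8 was also lower in males, by 0.18 ± 0.058 and 0.21 ± 0.058 (-0.19 and -0.21 without the 8 arrays), though only by 0.015 within batch 3 at 12 weeks. F7 was lower by 0.098 ± 0.028 and 0.094 ± 0.029 (-0.10 and -0.0995 without them).

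F11 was higher in males at both ages, and this sex difference shrank with age. It was 0.47 ± 0.051 at 5 weeks and 0.23 ± 0.051 at 12 weeks (adjusted p = 4.6e-16 and 1.6e-04), and 0.48 and 0.23 without the 8 arrays. Of 101 males of 5 weeks, 15 lay below the female median. The test of the age-by-sex difference gave -0.24 ± 0.072 (adjusted p = 0.020), with within-batch values of -0.15, -0.15, -0.20 and -0.48. Its neighbour Klkb1 was 0.094 ± 0.022 higher in males at 5 weeks and 0.040 at 12 weeks, where it did not pass (0.099 and 0.039 without the 8 arrays). F9 on the X chromosome, factor IX, was higher in males by 0.082 and 0.073, and Proc, protein C, which switches off factors V and VIII, by 0.088 and 0.040. F5 was higher by 0.11 and 0.074. Without the 8 arrays these values were 0.083 and 0.074 for F9, 0.090 and 0.039 for Proc and 0.11 and 0.075 for F5, and all 6 passed.

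Over all genes, 5.74% had a positive and 2.82% a negative age-by-sex difference. Among the 38 members 3 were positive (Pros1, F13b, Serpina1b) and 4 negative (Serpina11, F11, Fgg, F2). Pros1 was 0.055 ± 0.021 higher in males at 5 weeks and 0.16 ± 0.022 at 12 weeks, a change of 0.11 ± 0.031 (adjusted p = 0.010). Without the 8 arrays the sex differences were 0.054 and 0.17. F13b lay at the threshold (0.059 ± 0.021, adjusted p = 0.04999) and missed it without the batch term (adjusted p = 0.052) and after a further quantile normalization (adjusted p = 0.19). Serpina1b, an alpha1-antitrypsin gene that inhibits neutrophil elastase, had an age-by-sex value of 0.028, which was 0.0038 after a further quantile normalization (adjusted p = 0.83). Its age difference in males, 0.023 as deposited, was -0.0086 after a further quantile normalization. Serpinb9, an inhibitor of granzyme B, was 0.11 ± 0.031 higher in males at 12 weeks, while its age-by-sex value of 0.12 did not pass (adjusted p = 0.054). It did pass without the batch term (0.13, adjusted p = 0.047), with the plate code (0.035), after a further quantile normalization (0.036) and without the 8 arrays (0.13, adjusted p = 0.036), where the 12-week sex difference was 0.11.

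Serpina11, a little-studied clade A serpin, had by far the widest spread among the 38 genes. Its lowest, median and highest levels were 8.325, 10.24 and 11.36 in 5-week females and 9.085, 10.74 and 11.96 in 5-week males. At 12 weeks they were 8.480, 10.45 and 12.01 in females and 8.741, 10.42 and 11.84 in males. All 4 groups overlapped almost fully. After group and batch its residual SD was 0.766, above 99.96% of all genes, beside a median of 0.175 over all genes. With age Serpina11 fell in males (-0.36 ± 0.11, adjusted p = 0.0030), and the female difference was 0.20 ± 0.10 (adjusted p = 0.11). Males exceeded females at 5 weeks by 0.48 ± 0.10 (adjusted p = 6.8e-05), and the 12-week difference was -0.077 ± 0.10; without the 8 arrays the values were 0.50 and -0.062. The age-by-sex value was -0.56 ± 0.15 (adjusted p = 0.0049), with within-batch values from -0.42 to -0.94. In 5-week females a gap in the values ran from 9.642 to 9.911. The gap, found after the values were seen, left 31 of 118 females below it. Its width was 0.269. In the other groups the widest gaps away from the ends of the range were 0.0954 to 0.162. They left 12 of 101 males of 5 weeks, 15 of 110 females of 12 weeks and 25 of 106 males of 12 weeks below. Whether the values of any group form separate clouds was not tested.

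The spread of the other genes, taken after group and batch, ranged from 0.038 for Serpina1b upward. It was small for Serpinc1 (0.049), F2 (0.055), Plg (0.070) and Fgg (0.077), which are also among the brightest probe sets. It was large for Serpina3n (0.438), Serpinb8 (0.427), F3 (0.423), Serpina6 (0.403), F11 (0.376) and Serpinh1 (0.334). The median over the 38 genes was 0.167. Serpina3n and Serpina6, with large spreads, had mean levels of 12.03 and 12.74. The relation of spread to probe brightness was not tested.

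Each mouse had its own plasma glucose, insulin and triglycerides and its liver fat fraction in the labels. Slopes give the difference in log2 expression per SD of the log2 trait, scaled within each age and sex group and fitted with sex and batch. Triglyceride medians were 80.0 mg/dl in 5-week females, 106 in 5-week males, 104.5 in 12-week females and 163 in 12-week males. The SD of log2 triglycerides was 0.613, 0.707, 1.00 and 0.970 in that order, so a slope per SD spans a wider range of triglycerides at 12 weeks. Median liver fat fractions were 0.156, 0.148, 0.203 and 0.226. In the same order, the SD of log2 liver fat was 0.174, 0.187, 0.254 and 0.302. That of log2 insulin was 0.641, 0.702, 1.09 and 1.21, so slopes per SD span wider ranges of these traits too at 12 weeks. For log2 glucose it was 0.499, 0.48, 0.575 and 0.451.

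Triglyceride slopes were mostly negative at 5 weeks and positive at 12 weeks. In 219 mice of 5 weeks 12 of the 38 genes had a negative slope that passed and 1 a positive slope, where 5.39% and 9.16% of all genes did so. In 216 mice of 12 weeks 12 were positive and 3 negative, against 10.7% and 8.93% of all genes. The difference of the slopes between ages passed for 12 genes, all more positive at 12 weeks, where 7.37% of all genes were more positive and 8.69% more negative. Slopes passed in opposite directions at the 2 ages for 6 members (F7, Serpinf2, Serpind1, Kng1, Pros1 and F13b), and in the same direction for F9 and Serpinb6a. The calls of F9 were lost at 5 and at 12 weeks without the batch term (0.017 and 0.018, adjusted p = 0.12 and 0.083), with the plate code and with the trait unlogged, at 5 weeks also without the 8 arrays, and at 12 weeks also after a further quantile normalization and with ranks. Serpinb6a missed the threshold at 12 weeks with the plate code (-0.030, adjusted p = 0.065) and with the trait unlogged (-0.017, adjusted p = 0.32). Over all genes 313 passed in opposite and 389 in the same direction.

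F7 had the largest difference of slopes. Its slope was -0.057 ± 0.012 at 5 weeks and 0.10 ± 0.015 at 12 weeks, a difference of 0.16 ± 0.019 (adjusted p = 3.0e-13). Fitted in each group alone, the F7 slope was -0.040 in 5-week females, where it did not pass (adjusted p = 0.11), -0.082 in 5-week males, 0.077 in 12-week females and 0.13 in 12-week males. The difference was positive in each batch, at 0.17, 0.15, 0.14 and 0.086.

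Serpinf2 turned from -0.037 ± 0.010 to 0.057 ± 0.011, a difference of 0.092 ± 0.015 (adjusted p = 2.5e-07). Serpind1, with levels between 12.20 and 13.05 over all mice and medians of 12.79, 12.78, 12.65 and 12.62 in younger females, younger males, older females and older males, turned from -0.027 to 0.042. Kng1, with medians of 12.67, 12.64, 12.53 and 12.51 in the same order, turned from -0.032 to 0.031. For Pros1 (medians 8.900, 8.966, 8.816 and 8.995) the slopes were -0.029 and 0.038, and for F13b (medians 12.22, 12.23, 12.07 and 12.14) they were -0.021 and 0.033. With the trait unlogged the 5-week slopes of Pros1 and F13b missed the threshold (adjusted p = 0.057 and 0.072), as did that of F13b with the plate code (adjusted p = 0.069). In all 6 genes the slope was negative in females and in males alone at 5 weeks and positive in both at 12 weeks, although most of these single-group slopes did not pass.

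Batches did not all show the 5-week part. In batch 2, with 43 mice of 5 weeks, 5 of the 13 genes that passed kept their sign, where 84.2% of all 1947 genes that passed did. F7, Pros1 and F13b stayed negative there (-0.023, -0.030 and -0.011), while Serpinf2, Kng1 and Serpind1 were at 0.012, 0.0052 and 0.0038. In batches 1, 3 and 4 the counts were 13, 13 and 12 of 13. At 12 weeks 11, 15, 15 and 13 of 15 genes kept their sign in batches 1 to 4. F10 went from -0.078 ± 0.014 at 5 weeks to 0.029 at 12 weeks, where it did not pass (difference 0.11 ± 0.020, adjusted p = 3.4e-06). Serpina6 had a 12-week slope of 0.090 (-0.059 in batch 1) and differed by 0.14 ± 0.038 between ages (adjusted p = 0.0036), and by 0.091 with triglycerides left unlogged (adjusted p = 0.098). Serpina3n had a 12-week slope of 0.088 ± 0.033, with -0.091 in batch 1, and missed the threshold without the batch term, with the plate code, after a further quantile normalization and with the trait unlogged (adjusted p = 0.061, 0.16, 0.082 and 0.091). The 3 negative slopes at 12 weeks were those of F12 (-0.039), F8 (-0.038) and Serpinb6a (-0.036); of the 12 endothelial markers 1, Lyve1, was negative too (-0.24), and its part in the F8 slope was not tested. F11 had a slope of -0.10 ± 0.023 at 5 weeks (adjusted p = 3.4e-04), of opposite sign in batch 2 (0.054), and of -0.064 at 12 weeks, where it did not pass.

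**Figure D3:**
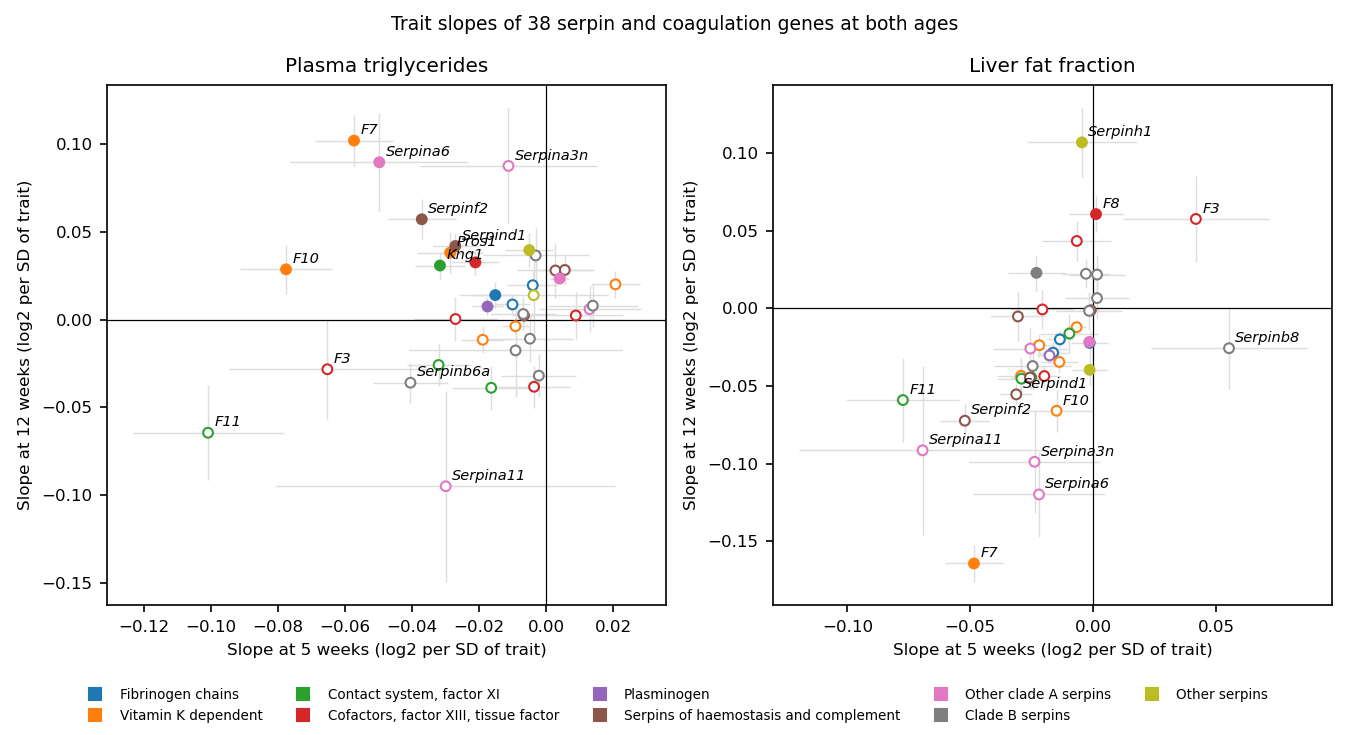
Slopes of the 38 genes at 5 weeks (x axis) and 12 weeks (y axis) for plasma triglycerides and liver fat fraction, in log2 expression per SD of the trait, with bars of 1 SE; filled points passed the test of the difference between ages, and colours give roles. For triglycerides the filled points lie above the horizontal line, most in the upper left, and for liver fat most points lie in the lower left.

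With liver fat, negative slopes predominated at both ages. At 5 weeks 9 genes had a negative slope that passed and 0 a positive one, where 2.54% and 3.06% of all genes did. At 12 weeks, in 215 mice with a liver fat value, 20 of the 38 were negative and 3 positive, against 13.0% and 13.0% of all genes. All 6 vitamin K dependent genes and all 3 fibrinogen chains were among the 20. After a further quantile normalization F2, Proc and Fga no longer passed (0.0064, -0.012 and -0.018, adjusted p = 0.34, 0.22 and 0.060), and with all 4 traits in 1 fit F2, Pros1 and Fga did not (adjusted p = 0.059, 0.26 and 0.45). The median slope at 12 weeks was -0.026 over the 38 genes and -0.0028 over all genes. No member passed in opposite directions at the 2 ages, and 8 passed as negative at both (F7, Klkb1, Kng1, Plg, Proc, Serpind1, Serpinf2 and Serping1). At 5 weeks F11, Klkb1, Kng1, Proc and Serping1 missed the threshold with the trait unlogged (adjusted p between 0.055 and 0.12), and Klkb1 and Serping1 also without the batch term and with the plate code. Within batches 1 to 4, all 9 genes at 5 weeks and 21 of 23 genes at 12 weeks kept their sign throughout.

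F7 had the steepest slope of the 38 genes at 12 weeks, at -0.16 ± 0.012 per SD of liver fat (adjusted p = 1.1e-28), with -0.16, -0.17, -0.16 and -0.15 in batches 1 to 4. At 5 weeks, where of the genes that passed F11 (-0.077 ± 0.023) and Serpinf2 (-0.052 ± 0.010) had larger slopes, it was -0.049 ± 0.012 (adjusted p = 0.0037), and the difference between ages was -0.11 ± 0.016 (adjusted p = 6.9e-09). Females and males alone gave -0.16 and -0.17 at 12 weeks. Mice with more liver fat had less F7 transcript in both sexes.

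Among the other vitamin K dependent genes, F10 followed with -0.066 ± 0.013, Pros1 with -0.043 and F9 with -0.035, and F2 had the smallest slope (-0.012). Fgb, Fga and Fgg had slopes of -0.029, -0.022 and -0.020. In the contact system Klkb1 (-0.045) and Kng1 (-0.044) passed, and F11 (-0.059, adjusted p = 0.097) did not. The inhibitors Serpinf2 (-0.072 ± 0.011), Serpind1 (-0.055 ± 0.007) and Serping1 (-0.045 ± 0.008) were lower with more fat, as were Plg (-0.030) and F13b (-0.044). Outside the clotting cascades, Serpina6 (-0.12 ± 0.027), Serpina3n, an acute phase serpin (-0.099 ± 0.033), and Serpinf1 (-0.040) were also negative. None of the 7 clade B genes passed at either age.

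The 3 positive slopes at 12 weeks belonged to genes known from cells other than hepatocytes. Serpinh1 had a slope of 0.11 ± 0.022 per SD of liver fat (adjusted p = 3.5e-05), beside -0.0046 at 5 weeks, a difference of 0.12 ± 0.031. Of the 7 stellate cell markers 3 also had positive slopes: Col1a1 (0.16), Lrat (0.12) and Pdgfrb (0.099), and 0 had negative ones. F8, factor VIII, which is made mainly by endothelium, had a slope of 0.061 ± 0.012 (adjusted p = 7.4e-06). Of 12 endothelial markers 4 were positive (Lyve1 at 0.17, Pecam1 at 0.063, Vwf at 0.056 and Emcn at 0.046) and 0 negative. F13a1, found in macrophages and platelets, had a slope of 0.043 ± 0.013 (adjusted p = 0.0067) at a level within the lowest 25% of genes. Of 11 macrophage markers 2 were positive (Cd68 at 0.12 and Mpeg1 at 0.078) and of 9 platelet markers 2 (Ppbp at 0.12 and Pf4 at 0.10). The part of these markers in the slopes of Serpinh1, F8 and F13a1 was not tested.

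The difference between ages in liver fat slope passed for 3 positive genes (Serpinh1, F8, Serpinb6a) and 3 negative genes (F7, Serpinf1, Serpina1b), where 6.64% and 5.99% of all genes did so. Serpinf1 and Serpina1b missed the threshold after a further quantile normalization (adjusted p = 0.060 and 0.13), and Serpinb6a with ranks (0.051). Of the 20 other haemostasis genes 8 had positive and 6 negative liver fat slopes at 12 weeks. Anxa2, a cell surface receptor that promotes plasmin formation, was steepest at 0.40, and Tfpi, the inhibitor of factor VII and tissue factor, was at 0.12. Hrg, histidine-rich glycoprotein, had -0.072 and Agt, the angiotensin precursor and a serpin by structure, had -0.079.

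**Figure D4:**
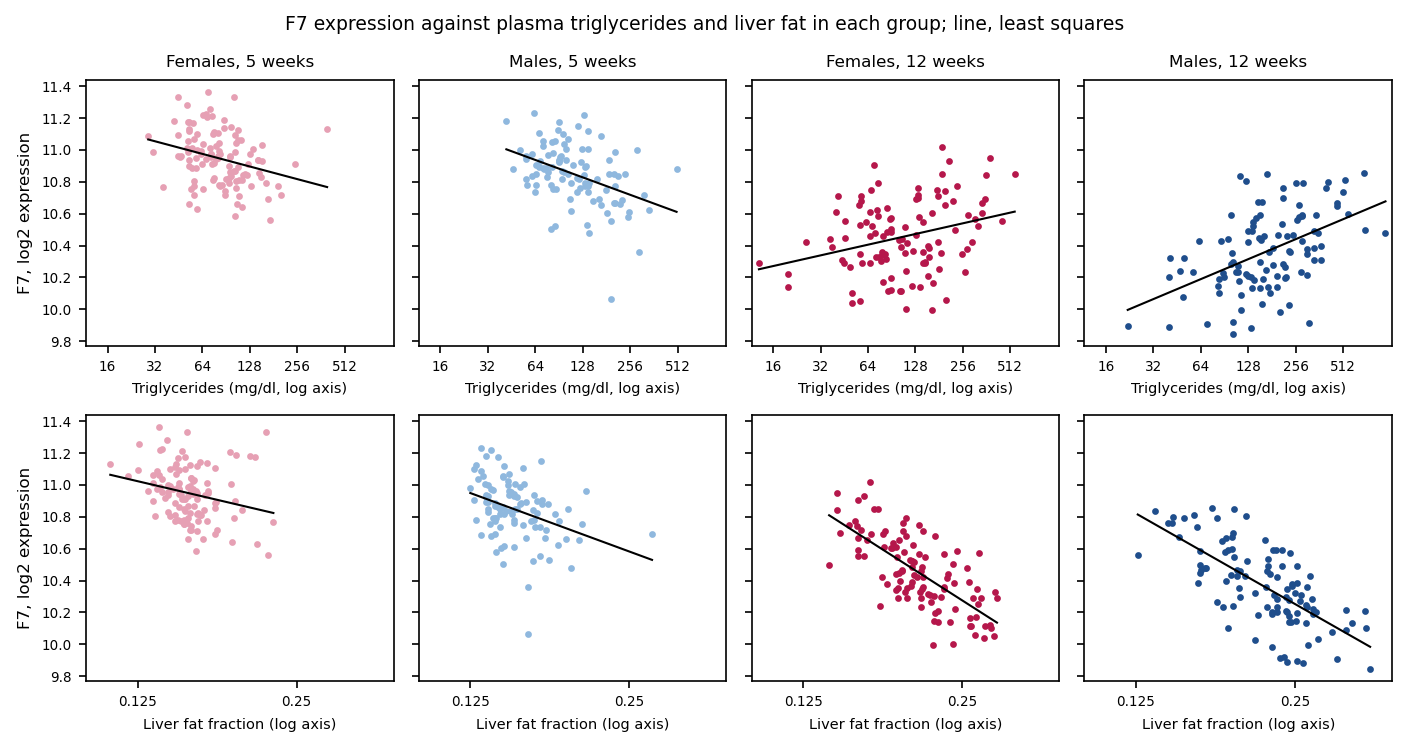
F7 log2 expression of each mouse against plasma triglycerides (top, mg/dl, log axis) and liver fat fraction (bottom, log axis) in the 4 groups, with least squares lines. The triglyceride lines slope down at 5 weeks and up at 12 weeks, and the liver fat lines slope down in every group.

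Glucose slopes were negative in the young mice and of both signs in the older ones. At 5 weeks 11 genes had negative and 0 positive slopes that passed, against 3.61% and 4.51% of all genes. At 12 weeks 7 were positive and 3 negative, against 7.41% and 5.50%. The difference between ages was positive for 8 genes and negative for 0, where 3.29% and 3.30% of all genes passed. F7 turned from -0.053 ± 0.012 to 0.058 ± 0.016 (difference 0.11 ± 0.020, adjusted p = 8.0e-06), and Serpinf2, Serpind1 and F13b also passed with opposite signs. At 12 weeks Serpind1 and Serpinf2 missed the threshold without the batch term (adjusted p = 0.072 and 0.19), with the plate code (0.059 and 0.067) and after a further quantile normalization (0.13 and 0.092), and at 5 weeks Serpind1 and F13b did with the plate code (0.11 and 0.23) and with ranks (0.12 and 0.075). In batch 1, with 28 mice of 12 weeks, the 12-week slopes of F7, Serpinf2 and Serpind1 were negative (-0.026, -0.025 and -0.025). F11 stayed negative at both ages, with -0.12 ± 0.023 and -0.13 ± 0.026 (adjusted p = 3.1e-05 and 7.9e-05), and all 4 batches had this sign at each age. Klkb1 (-0.034 and -0.037) and Proc (-0.021 and -0.023) also passed as negative at both ages, though Klkb1 missed the threshold at 5 weeks with the plate code (adjusted p = 0.054) and Proc at both ages with ranks (adjusted p = 0.12 and 0.20). Over all genes 60 passed in opposite and 254 in the same direction. Serpina6 had the largest positive slope at 12 weeks (0.11 ± 0.028).

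Insulin was related to few members at 5 weeks, where 1 gene was positive (Serpinb6e, 0.038) and 1 negative (Serpinb6a, -0.039), against 1.02% and 1.43% of all genes. At 12 weeks 4 were positive and 12 negative, against 13.4% and 14.1%. Serpina3n (-0.14 ± 0.032), Serpina6 (-0.13 ± 0.027) and F7 (-0.11 ± 0.014, adjusted p = 6.0e-12) had the largest negative slopes. Serpinh1 (0.11 ± 0.022), F11 (0.076), F8 (0.071 ± 0.011) and Serpinb9b (0.044) were positive, the last with opposite sign in batch 1 (-0.030). Of the markers of other cells, 5 of 7 neutrophil, 4 of 11 macrophage, 3 of 9 lymphocyte and 2 of 7 stellate markers had positive slopes and 0 negative ones, 3 of 9 platelet markers were positive and 1 negative, and of 12 endothelial markers 0 were positive and 1 negative. Their part was not tested. The difference between ages was positive for 4 genes and negative for 4, where 6.96% and 6.27% of all genes passed, with Serpinh1 (0.13 ± 0.031) and Serpina3n (-0.12 ± 0.042) at the ends. That of Serpina3n missed the threshold without the batch term, with the plate code and with the trait unlogged (adjusted p = 0.093, 0.0504 and 0.10).

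The traits were themselves related across the 12-week mice, so these slopes overlap. Within age and sex groups, liver fat had a correlation of 0.48 with insulin and of -0.42 with triglycerides, and triglycerides had 0.56 with glucose and -0.49 with insulin. At 5 weeks the largest of these correlations was that of triglycerides with glucose (0.45), and liver fat had 0.14 with triglycerides. When all 4 traits were fitted at once, a fit added after the data were seen, 18 members passed for liver fat at 12 weeks, 16 of them among the 23 that passed alone. F7 then had a liver fat slope of -0.14 ± 0.014 and F11 one of -0.13 ± 0.030 (adjusted p = 3.3e-16 and 3.6e-04). For triglycerides at 12 weeks 2 genes passed in the joint fit, Serpinh1 (0.12) and Serpina1b (0.013), and F7 had 0.028 (adjusted p = 0.33). At 5 weeks 3 genes passed for triglycerides: F3 (-0.099), F10 (-0.054) and F7 (-0.036). The joint fit left 1 gene for glucose at 12 weeks (F11, -0.11) and 5 for insulin.

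Neighbouring genes were compared mouse by mouse. In an F2 cross, genes close together on a chromosome are mostly inherited together. The part of this shared inheritance in the correlations was not tested. Of the 38 genes, 12 pairs lie within 100 kb of each other, which gave 48 combinations of pair and group. With batch means removed, 24 of the 48 passed permutation tests of both Pearson's r and Spearman's rho (100000 permutations, two-sided, Benjamini-Hochberg over the 48). The smallest p that these permutations can give is 1e-05, or 2.8e-05 after adjustment for r and 3.7e-05 for rho. The median r over the 12 pairs was 0.128, 0.249, 0.281 and 0.358 in 5-week females, 5-week males, 12-week females and 12-week males. Over the 691 other pairs of members it was 0.105, 0.0743, 0.0643 and 0.050 in the same order. The 95th percentiles of those other pairs were 0.474, 0.446, 0.42 and 0.433. The other pairs were not tested, so no share of passing pairs among them can be set beside the 24 of 48. The count therefore does not set neighbours apart from other members.

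Fgb and Fgg, whose products join with that of Fga in the fibrinogen molecule, varied almost together. Their r was 0.873 in 5-week females, 0.904 in 5-week males, 0.873 in 12-week females and 0.890 in 12-week males. The rho values were 0.873, 0.860, 0.879 and 0.751, with adjusted permutation p at the smallest value in all 4 groups. Without the 2 mice farthest from the median r stayed between 0.850 and 0.881, and no single batch of a group fell below 0.587. Fgb levels ran only from 14.29 to 14.73 in 5-week females and from 14.04 to 14.95 in 12-week males, and those of Fgg from 14.31 to 14.62 and from 14.17 to 14.78.

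Fga followed its partners in 3 of the groups. With Fgb it had r of 0.497 in 5-week males, 0.446 in 12-week females and 0.534 in 12-week males, and rho of 0.522, 0.357 and 0.348. In 5-week females r was 0.0363 and rho 0.0744 (permutation p = 0.696 and 0.422). With Fgg the r values were 0.523, 0.373 and 0.513, and 0.0794 in 5-week females. Fga ran from 14.02 to 14.52 in 5-week females and from 13.96 to 14.64 in 5-week males. Its SD was 0.103 in 5-week females, 0.12 in 5-week males, 0.0997 in 12-week females and 0.134 in 12-week males. The difference in r between groups was not tested. Among 12-week females, batch 1 had r of -0.174 with Fgb and -0.265 with Fgg, and among 12-week males batch 3 had 0.0270 and 0.0783. Both Fga and Fgb held GTTAAT and TTCNNNGAA in the printed promoter windows and Fgg held neither. No relation of these strings to the correlations was tested.

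F11 and Klkb1, which encode the paired factor XI and prekallikrein, had r of 0.667, 0.621, 0.763 and 0.611 in 5-week females, 5-week males, 12-week females and 12-week males. Their rho values were 0.673, 0.647, 0.710 and 0.588, and r without the 2 farthest mice was 0.578 to 0.733. F7 and F10 had r of 0.491, 0.450, 0.340 and 0.417 and rho of 0.485, 0.469, 0.306 and 0.410 in the same order, and r without the 2 farthest mice was 0.359 to 0.472. In batch 1 of the 12-week females r was 0.0508. All adjusted permutation p for these pairs were at most 0.00272. Serpina10 with Serpina6 passed in 5-week females alone of the groups (r = 0.447, rho = 0.469) and had r between -0.129 and 0.0228 elsewhere; the difference was not tested. The clade B neighbours Serpinb6a with Serpinb6e and Serpinb9 with Serpinb9b passed in no group.

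**Figure D5:**
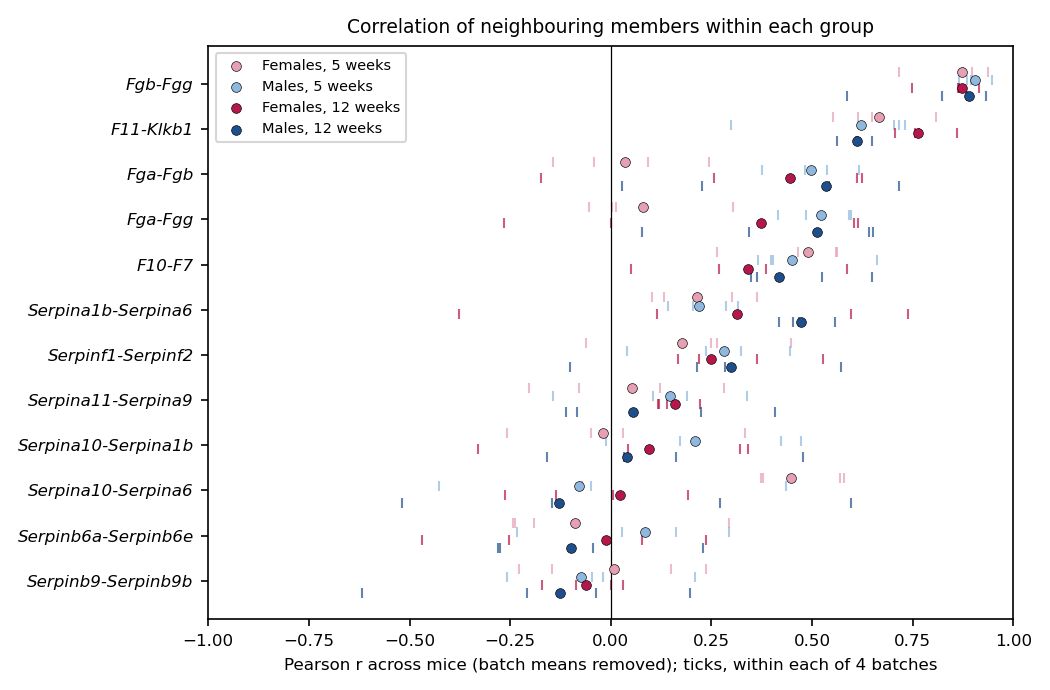
Pearson r across mice for 12 pairs of neighbouring genes in each of the 4 groups, after removal of batch means (points), with ticks for r within single batches. Fgb with Fgg lies between 0.873 and 0.904, F11 with Klkb1 between 0.611 and 0.763, and the clade B pairs lie around 0.

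Some members on different chromosomes or farther apart varied together as well, here chosen by size and given with no test. Plg, plasminogen, and Serpinf2, the inhibitor of plasmin, had r of 0.711, 0.688, 0.556 and 0.619 in 5-week females, 5-week males, 12-week females and 12-week males. Serpind1 with Serpinf2 had 0.686, 0.660, 0.624 and 0.577, and F7 with Serpinf2 0.617, 0.473, 0.602 and 0.571. Serpina11 and Serpina3n lie on chromosome 12 more than 100 kb apart. The part of shared inheritance in their correlation was not tested either. Across all mice of a group their r was 0.85 in 5-week females, 0.706 in 5-week males, 0.759 in 12-week females and 0.784 in 12-week males. Parted at the gap in Serpina11, the 5-week females had r of 0.445 among the 31 mice below it and 0.619 among the 87 above. Parted at their own widest gaps, the other groups had r of 0.27 to 0.328 below and 0.561 to 0.624 above. Parting the mice on Serpina11 narrows its range in each part, which by itself can lower r. No conclusion is drawn from the parted values. Serpina3n itself ran from 11.20 through a median of 12.03 to 12.78 in 5-week females and from 10.86 through 12.09 to 13.58 in 12-week males.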

How the data were processed

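Livers of 435 db/db F2 mice were measured on Affymetrix arrays, 1 array per mouse. The authors deposited 1 table of log2 values for 15397 probe sets, made with RMA per the submitters' processing notes; the notes give no version. Values were used as deposited. Of the probe sets 13516 carried 1 gene symbol, 162 several and 1719 none. For the 134 genes with several probe sets the one with the highest mean was kept, which left 13379 genes with 0 missing values. Glucose, insulin, triglycerides and liver fat came from the labels.

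Group means plus batch were fitted with limma 3.58.1 (R 4.3.3, lmFit and eBayes), with Benjamini-Hochberg adjustment across the 13379 genes and a threshold of 0.05. Trait slopes used log2 traits scaled to SD 1 within each age and sex group, in the same kind of fit. Differences are given ± SE. Within-batch values used batches 1 to 4. Correlations used numpy 2.4.6, pandas 2.3.3 and scipy 1.17.1. Nothing in the labels pairs mice across groups. The fits were tested on simulated data. The number of arrays limits the precision.

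Values are named for every passing member with a change of at least 0.2, and otherwise for up to 3 members per role by size; some other members are named to complete a role or pair and were chosen after their values were seen. The members and lists were chosen with earlier results of these data known. Alternatives were no batch term, plate code (25 values) in place of batch, a further quantile normalization, the mean over probe sets, the lowest 25% of genes by mean left out, traits unlogged or as ranks, limma's trend and robust options, batches 5 and 6 left out, and the 8 arrays left out. Added after the data were seen were the fit of all 4 traits at once and each group alone.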

Additional observations from a re-analysis of the deposited data

Results flagged for a closer look

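Age differences differed between the sexes, by the test of the age-by-sex term, for 7 genes. The values were -0.56 for Serpina11, -0.235 for F11, -0.0479 for Fgg, -0.0326 for F2, 0.0279 for Serpina1b, 0.059 for F13b and 0.108 for Pros1. The value of Serpina1b was 0.0038 after a further quantile normalization (adjusted p = 0.83). Those of F13b and F2 missed the threshold without the batch term (adjusted p = 0.052 for each), and that of F13b also after a further quantile normalization (adjusted p = 0.19).

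Trait slopes differed between 5 and 12 weeks, by the test of the difference. For triglycerides the values were 0.156 for F7, 0.14 for Serpina6, 0.107 for F10, 0.0922 for Serpinf2, 0.0681 for Serpind1, 0.067 for Pros1, 0.0637 for Kng1, 0.055 for F13b, 0.0444 for Serpinf1, 0.0288 for Fgb, 0.0257 for Plg and 0.0197 for Serpina1b. For glucose they were 0.112 for F7, 0.0816 for Serpinf2, 0.0641 for F10, 0.052 for F13b, 0.0453 for Serpind1, 0.0385 for Serpinf1, 0.0379 for Kng1 and 0.0152 for Serpina1b. For triglycerides, Fgb and Plg missed the threshold after a further quantile normalization (adjusted p = 0.053 and 0.081). Serpina6 did so with the trait unlogged (0.098). For glucose, a further quantile normalization lost Serpinf1 and Serpina1b (adjusted p = 0.12 and 0.051). Serpinf1 was also lost without the batch term (0.25), and Kng1 with the plate code (0.085).

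Insulin slopes differed by 0.133 for Serpinh1, 0.0851 for F8, 0.0588 for F12, 0.0523 for Serpinb6a, -0.0213 for Serpina1b, -0.0356 for Serpinf1, -0.0837 for F7 and -0.119 for Serpina3n. Liver fat slopes differed by 0.125 for Serpinh1, 0.063 for F8, 0.0488 for Serpinb6a, -0.0199 for Serpina1b, -0.0372 for Serpinf1 and -0.114 for F7. All values are log2 expression per SD of the trait, 12 minus 5 weeks. For insulin, Serpina3n missed the threshold without the batch term, with the plate code and unlogged (adjusted p = 0.093, 0.0504 and 0.10). Serpinf1 did so unlogged and with ranks (0.12 and 0.051), and Serpina1b after a further quantile normalization (0.075). For liver fat, that normalization lost Serpina1b and Serpinf1 (adjusted p = 0.13 and 0.060), and ranks lost Serpinb6a (0.051).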

How the results depend on the processing

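Counts of members that passed stayed within 1.5 times for every age and sex comparison under the alternatives run. The glucose count at 5 weeks, 11 as reported, was 5 with the plate code, 6 with ranks and 3 with all 4 traits in 1 fit. That joint fit also gave 1 for glucose at 12 weeks (10 as reported), 5 for insulin at 12 weeks (16), 3 and 2 for triglycerides at 5 and 12 weeks (13 and 15), and 5 for liver fat at 5 weeks (9), which was 4 with the trait unlogged. Over all genes the joint fit passed 3.08% for glucose and 5.16% for liver fat at 5 weeks. The insulin count at 5 weeks, 2 as reported, was 4 without a batch term, with the trait unlogged or with ranks. Signs turned after a further quantile normalization for F2 with age in females (0.0208) and with liver fat at 12 weeks (0.00636), and for Serpina1b with age in males (-0.00858). In the joint fit at 12 weeks they turned for F7 with glucose (-0.00654), for F13b (0.000144), Serpind1 (0.00991), Serpinf2 (0.0186) and Serping1 (0.0016) with insulin, and for Serpina6 with triglycerides (-0.0124); the cause was not tested. The median change of all genes was at most 0.0115 in size under every alternative. Neighbour pairs that passed numbered 24 to 26. No paired analysis was possible because no label pairs mice across groups. Signal over background is not in the table used, so the 5 genes in the lowest 25% by mean (Serpina9, Serpinb11, F13a1, Serpinb9, Serpinb9d) may lie near background.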
